A study of Mus musculus with 12 samples.

Results

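The 37 genes described here encode proteins of the postsynaptic density and the dendritic spine. They were taken by name from the gene table, provided that the mean deposited count over the 12 libraries was at least 10. Of 21312 loci in the table, 19336 carry a gene name, and each of the 37 names was found once. All 37 passed the count limit, with mean counts of 130 to 6991, and all 37 were among the 15656 genes tested.

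An excitatory synapse on a spine is built on a dense protein layer beneath the membrane. Membrane-associated guanylate kinases such as Dlg4 hold glutamate receptors at the surface, Dlgap proteins link them to Shank proteins, and Shank proteins connect through Homer to the deeper layer and to spine actin. Kinases, calmodulin-binding proteins and small GTPase regulators sit on this scaffold and translate calcium entry into changes of spine shape and receptor number, and adhesion proteins such as neuroligins tie it to the axon terminal. In cultured hippocampal neurons many of these genes are known to rise as dendrites mature.

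RNA was sequenced from hippocampal neuronal cultures of WT mice, taken at postnatal day 4 and kept for 8 days in culture. The 4 groups of 3 libraries each were 20 µM DAPT plus 20 nM sErbB4, 20 nM sErbB4 alone, 20 µM DAPT alone, and vehicle. DAPT inhibits γ-secretase, the membrane protease that releases the intracellular domains of Nrg1, Notch receptors and other proteins, and it was given before sErbB4. The soluble ErbB4 ectodomain (sErbB4) is a ligand for Nrg1 on the neuronal surface and was present for 4 h before RNA was taken. No mutant genotype was part of this experiment, and a culture of this kind holds glia and dividing cells beside neurons. DAPT acts on the γ-secretase of all of these cells, and the libraries hold RNA of all of them.

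Library totals were 36.5 to 54.4 M counts (M for mega), of which 18.7 to 30.8 M fell on named loci. A single locus for precursor ribosomal RNA, Rn45s, accounted for 31.4 to 44.6% of what fell on named loci. sErbB4 replicate 1 and vehicle replicate 3 stood apart on the second principal component of all genes (47.8 and 30.2, against -16.7 to 0.926 in the 10 others). Levels are given as CPM (counts per M counts of the library) after TMM scaling of the library sizes, and errors are SD of 3 libraries. A gene was called at a Benjamini-Hochberg adjusted p under 0.05 (edgeR's quasi-likelihood test over all 15656 genes) and a level more than 25% above that of the other group, or below it by the same ratio (the fold limit). Libraries of a group were deposited as separate samples, and p-values measure the spread between them.

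The summed level of the postsynaptic genes was higher in cultures given DAPT, as was that of pan-neuronal markers, and relative to those markers the median of the 37 genes was slightly negative. The summed level of the 37 was 2016 to 2120 CPM with DAPT + sErbB4 and 1809 to 1860 CPM with sErbB4, and it was 1909 to 1978 CPM with DAPT and 1672 to 1728 CPM with vehicle. The libraries of each pair did not overlap in this sum. Neither did those of sErbB4 and vehicle, nor those of DAPT + sErbB4 and DAPT, with the sum higher where sErbB4 was given. In these sErbB4 comparisons 0 of 37 genes were called, and a sum is weighted toward abundant genes such as Nrgn and Camk2a. In DAPT + sErbB4 against sErbB4, 7 of 37 genes were called higher and 0 lower, where 4.55% of all genes tested were called higher and 7.15% lower. DAPT against vehicle gave the same numbers, 7 higher and 0 lower, beside 4.66% and 6.92% of all genes. The median log2 fold change of the 37 was 0.18 and 0.17 in these comparisons, and that of all genes tested was 0.01 in both. When libraries were scaled to the summed counts of 10 pan-neuronal markers in place of TMM, the medians of the 37 were -0.03 in both comparisons, with 14 and 15 genes positive, and 3 and 2 members were called, of which 1 and 0 were higher. Without sErbB4 replicate 1 and vehicle replicate 3, the libraries that stood apart, 9 and 11 members were called.

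Most changes were smaller than the fold limit. At an adjusted p under 0.05 with no fold limit, 14 members were higher and 1 lower in DAPT + sErbB4 against sErbB4, where 11.1% of all genes were higher and 13.5% lower. In DAPT against vehicle the numbers were 17 higher and 1 lower, beside 10.3% and 13.3% of all genes. The average DAPT effect, the mean of the log2 fold changes with and without sErbB4, uses all 12 libraries. By this measure 24 members were higher and 2 lower at an adjusted p under 0.05 (18.1% and 19.7% of all genes), and with the fold limit 7 were called higher and 0 lower (5.54% and 7.7% of all genes). In the single libraries, 14 members were higher in every one of the 6 with DAPT than in any of the 6 without it, 2 were lower in every one, and 21 overlapped, while 8.6% and 11.8% of all genes stood apart in these ways.

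**Figure D1:**
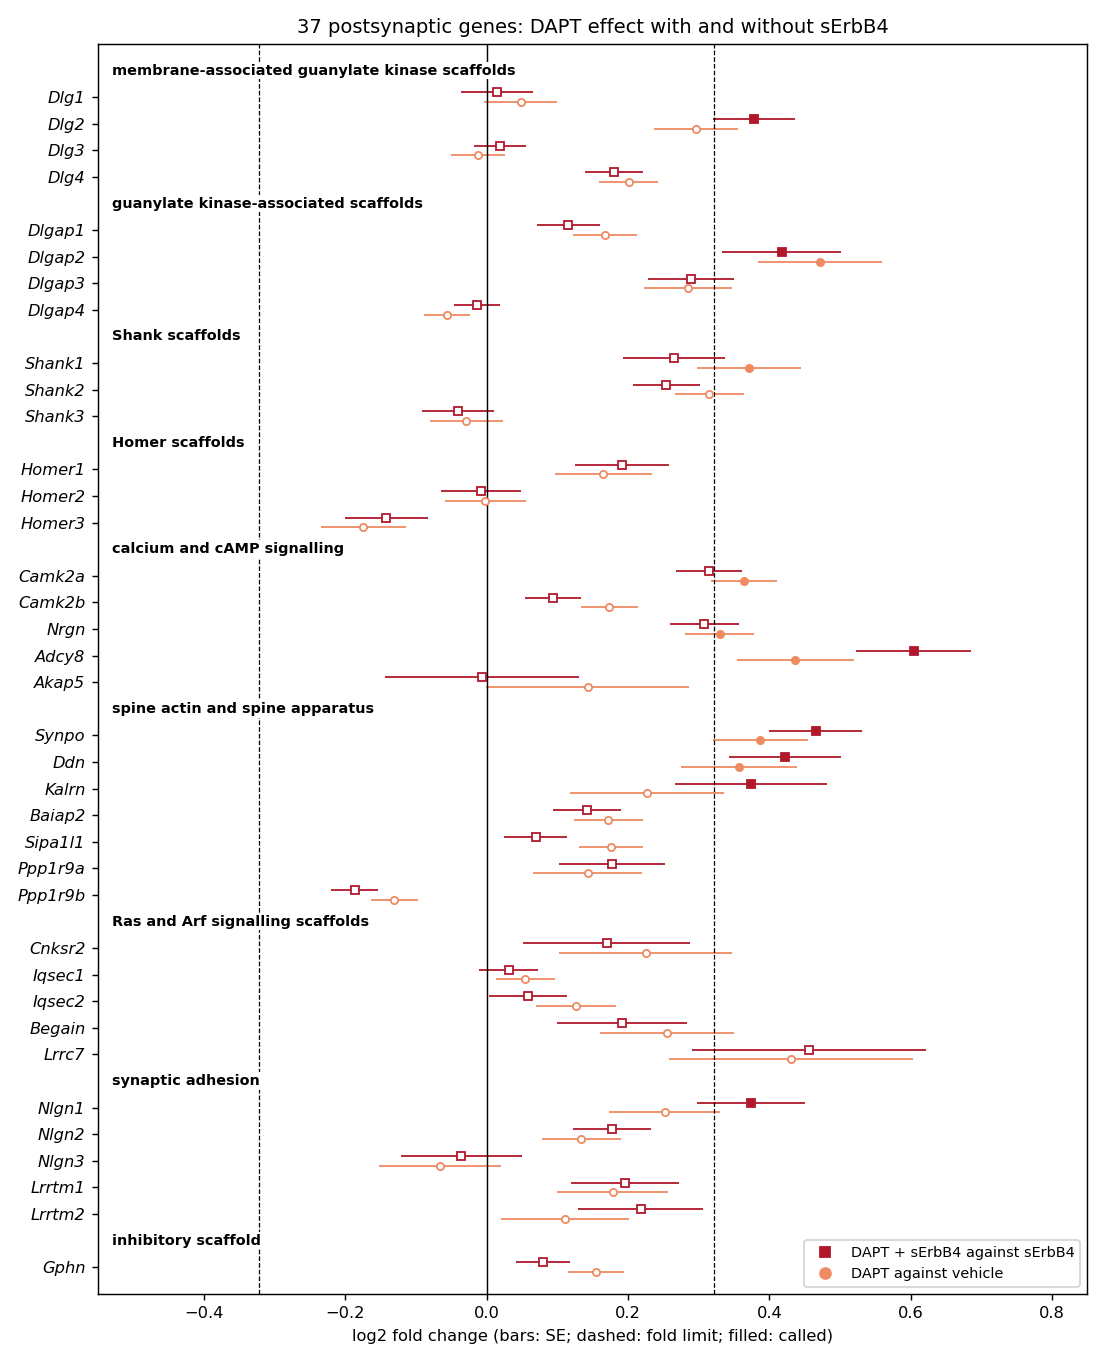
Log2 fold change of each of the 37 genes (vertical axis, grouped by role) in DAPT + sErbB4 against sErbB4 (squares) and in DAPT against vehicle (circles), with SE bars; filled symbols are called and dashed lines mark the fold limit. In both comparisons 30 of the 37 genes lie right of 0, and Homer3 and Ppp1r9b lie farthest left.

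Both DAPT comparisons share no library, so each can be read against the other. Dlgap2, Adcy8, Synpo and Ddn were called higher in both. Dlg2, Kalrn and Nlgn1 were called only in DAPT + sErbB4 against sErbB4, and Shank1, Camk2a and Nrgn only in DAPT against vehicle. For these 6 genes the difference between the comparisons was itself tested, as the interaction of DAPT with sErbB4, and it was not called for any of them. The log2 fold changes had the same sign in 35 of 37 members (94.6%), against 78.2% of all genes tested. The exceptions were Dlg3 and Akap5, both within 0.15 of 0 on the log2 scale.

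**Figure D2:**
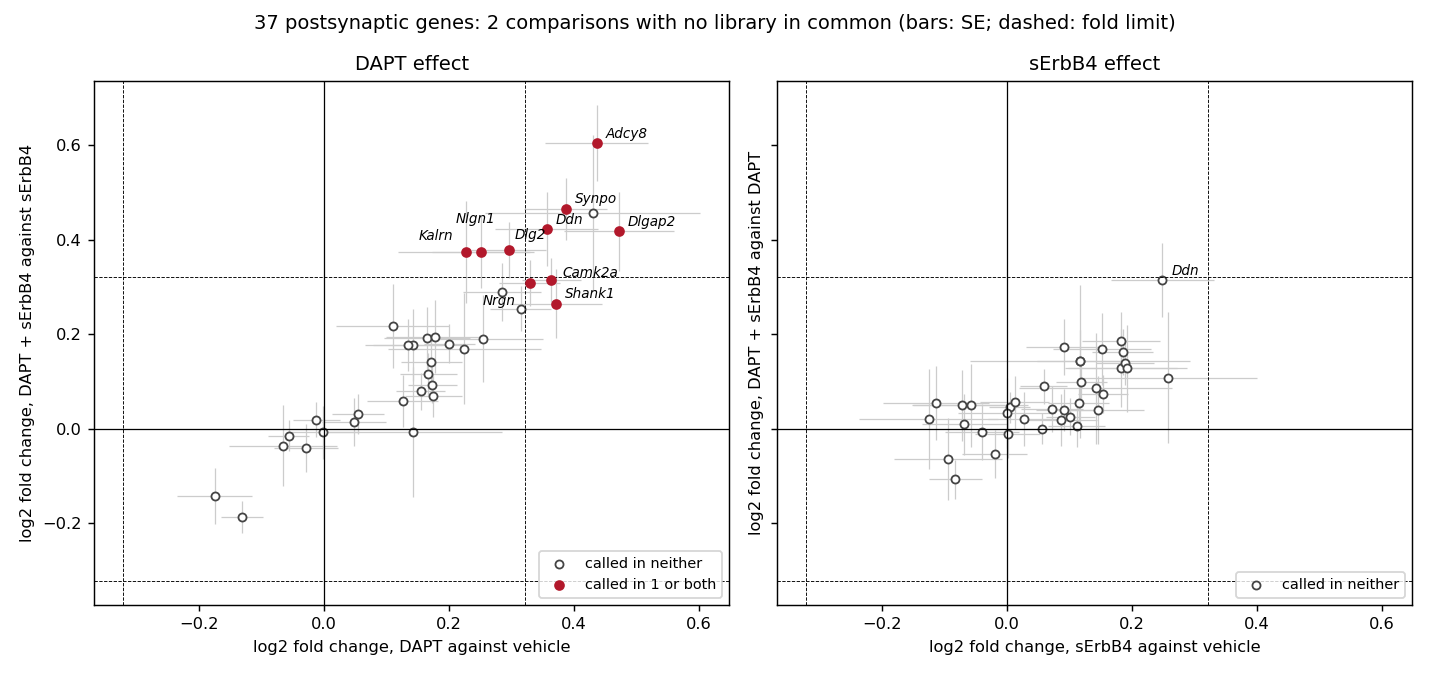
Log2 fold change of the 37 genes in a pair of comparisons that share no library, for the DAPT effect (left; vertical axis with sErbB4 present, horizontal axis without) and for the sErbB4 effect (right; vertical axis with DAPT present, horizontal axis without), with SE bars and dashed lines at the fold limit. In the left panel 10 genes are called in 1 or both comparisons; in the right panel 0 are called, and Ddn lies at 0.31 with DAPT present and 0.25 without it.

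Markers of other cell types changed with DAPT as well, and in bulk RNA fewer cells of a type and less RNA per cell cannot be told apart. The 10 pan-neuronal markers, among them Tubb3, Map2 and Rbfox3, summed to 1541 to 1769 CPM in libraries with DAPT and to 1312 to 1527 CPM in those without it, with 9 of 10 positive and a median average DAPT effect of 0.25 on the log2 scale (4 called higher). When libraries were scaled to this sum in place of TMM, 1 member was called higher (Adcy8) and 2 lower (Homer3, Ppp1r9b) in DAPT + sErbB4 against sErbB4, and 0 higher and 2 lower (the same pair) in DAPT against vehicle. In the average DAPT effect this scaling put the median of all genes at -0.195 in place of 0.01, and that of the members at -0.04 in place of 0.16. It shifts every gene by nearly the same amount, so the distance of the members from the median gene is fixed by its construction. The average DAPT effect was positive in 31 members under TMM and in 14 under this scaling, and 17 members changed sign. Of the 24 members higher at an adjusted p under 0.05 under TMM, 10 changed sign (Dlg4, Dlgap1, Homer1, Camk2b, Baiap2, Sipa1l1, Ppp1r9a, Nlgn2, Lrrtm1 and Gphn), and 7 stayed positive at an adjusted p under 0.05 (Dlg2, Dlgap2, Camk2a, Nrgn, Adcy8, Synpo and Ddn). The rest of the 24 (Dlgap3, Shank1, Shank2, Kalrn, Begain, Lrrc7 and Nlgn1) stayed positive at adjusted p of 0.0872 to 0.786. Members negative at an adjusted p under 0.05 under this scaling were Dlg1, Dlg3, Dlgap4, Shank3, Homer2, Homer3, Camk2b, Ppp1r9b, Iqsec1 and Nlgn3. The 6 oligodendrocyte lineage markers summed to 472 to 524 CPM with DAPT and 938 to 1033 CPM without it (4 of 6 called lower), and the 5 proliferation markers to 19.1 to 21.3 CPM with DAPT and 46.7 to 57.3 CPM without it (5 of 5 called lower). Astrocyte markers summed to 5528 to 6232 CPM with DAPT and 4936 to 5861 CPM without it (2 of 6 called lower, 0 higher), microglia markers to 25.9 to 30.7 CPM with DAPT and 27.6 to 30.7 CPM without it (1 of 6 called lower), and mural and fibroblast markers to 60.9 to 74.0 CPM with DAPT and 65.3 to 75.1 CPM without it (2 of 6 called higher, 2 lower). No marker on these 6 lists was at 0 in every library, and the part of the glial and dividing cells in the postsynaptic values was not tested.

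Among the membrane-associated guanylate kinases, Dlg2 and Dlg4 were higher with DAPT, and Dlg1 and Dlg3 did not pass the test. Dlg2 (chr7:90476188-92449246, build GRCm38), whose protein clusters receptors and channels at the synapse, had 44.1, 44.0 and 44.4 CPM in DAPT + sErbB4 libraries, against 34.9, 34.6 and 32.4 CPM in sErbB4 libraries. It had 38.2, 39.6 and 39.8 CPM in DAPT libraries, against 28.5, 34.2 and 33.3 CPM in vehicle libraries. Every library with DAPT was above every library without it. The log2 fold change was 0.38 (SE 0.06, adjusted p = 0.000694) with sErbB4 present, which was called, and 0.30 (SE 0.06, adjusted p = 0.00399) without it, a fold of 1.23 that fell under the fold limit. Dlg2 was also called in the average DAPT effect (0.34, SE 0.04, adjusted p = 6.94e-05), but that call ended without vehicle replicate 1 (0.30) or without sErbB4 replicate 3 (0.32).

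Dlg4 (chr11:70017203-70045535), which encodes the main scaffold that anchors AMPA receptor complexes, moved less but with little spread. It averaged 145.8 ± 6.76 CPM with DAPT + sErbB4 and 128.7 ± 1.93 CPM with sErbB4, and 136 ± 5.24 CPM with DAPT and 118.5 ± 1.09 CPM with vehicle (SD, n = 3 each). Its average DAPT effect was 0.19 (SE 0.03, adjusted p = 0.000339), a fold of 1.14. Dlg1 and Dlg3, which encode scaffolds also used in receptor trafficking, had average DAPT effects of 0.03 (SE 0.04, adjusted p = 0.547) and 0.00 (SE 0.03, adjusted p = 0.976). Their libraries with and without DAPT overlapped. When libraries were scaled to the pan-neuronal sum, Dlg4 was at -0.02 (adjusted p = 0.697) and Dlg2 stayed positive at 0.13 (adjusted p = 0.0195). Dlg1 was then at -0.17 (adjusted p = 0.0108) and Dlg3 at -0.20 (adjusted p = 9.61e-05).

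DAPT blocks Notch cleavage, and the cleaved Notch domain acts on DNA through the protein Rbpj, so start-site windows were searched for the Rbpj core TGGGAA on both strands. Windows of 300 bases (250 before and 50 after a RefSeq start, GRCm38.p6) were searched for 28 of the 37 genes, 49 windows in all. The search left out a whole chromosome, the one that holds Camk2a, Synpo and Lrrtm2. That these genes have no window is therefore a limit of the search. The core stood in 9 of 49 windows, from 6 genes, while 25.6% of the 32851 windows searched over all genes held it. Of these 6 genes, Dlg2 was called higher in the average DAPT effect, Dlg4 rose under the fold limit, and Dlg1, Iqsec1, Iqsec2 and Shank3 did not pass the test. Among the 7 genes called in that effect, only Dlg2 and Lrrc7 had a window that was searched. Dlgap2, Camk2a, Adcy8, Synpo and Ddn had none, nor had Shank1, Shank2, Nlgn3 and Lrrtm2, so the core in most called genes is not known here. The Lrrc7 window lacked the core, and so did the Dlg2 window chr7:91090536-91090835 and the Dlg4 window chr11:70018355-70018654. The 4 windows shown are 5′ to 3′ on the gene's strand with the core or its reverse complement in capitals: a Dlg2 window (chr7:92234720-92235019, plus strand) and a Dlg4 window (chr11:70016953-70017252, plus strand) from genes that were higher with DAPT, a Shank3 window (chr15:89499358-89499657, plus strand) that holds the core in a gene that did not pass the test, and the Nrgn window (chr9:37552696-37552995, minus strand) that lacks it in a gene that was higher.
Dlg2: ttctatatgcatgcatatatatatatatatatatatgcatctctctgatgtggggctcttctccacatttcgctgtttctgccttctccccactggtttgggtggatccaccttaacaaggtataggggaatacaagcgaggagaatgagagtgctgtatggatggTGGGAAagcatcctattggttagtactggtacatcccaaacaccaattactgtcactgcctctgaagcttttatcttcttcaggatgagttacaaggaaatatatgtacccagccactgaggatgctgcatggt
Dlg4: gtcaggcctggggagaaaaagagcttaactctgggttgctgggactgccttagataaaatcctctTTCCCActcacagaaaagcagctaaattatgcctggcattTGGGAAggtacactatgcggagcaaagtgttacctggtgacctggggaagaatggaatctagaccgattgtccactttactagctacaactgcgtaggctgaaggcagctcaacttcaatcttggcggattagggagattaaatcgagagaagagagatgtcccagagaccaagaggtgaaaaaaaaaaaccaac
Shank3: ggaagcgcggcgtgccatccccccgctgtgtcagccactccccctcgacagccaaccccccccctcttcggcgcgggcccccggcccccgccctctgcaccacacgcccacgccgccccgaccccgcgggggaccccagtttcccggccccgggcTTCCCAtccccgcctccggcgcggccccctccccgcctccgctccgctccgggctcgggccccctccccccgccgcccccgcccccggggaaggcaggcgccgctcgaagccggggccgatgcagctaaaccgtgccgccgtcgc
Nrgn: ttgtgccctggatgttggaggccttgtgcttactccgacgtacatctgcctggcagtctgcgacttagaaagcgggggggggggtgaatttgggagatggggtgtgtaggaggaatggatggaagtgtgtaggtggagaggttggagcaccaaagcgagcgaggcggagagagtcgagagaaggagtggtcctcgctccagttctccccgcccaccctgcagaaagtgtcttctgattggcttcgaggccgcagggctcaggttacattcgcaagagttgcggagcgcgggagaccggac
A match in these windows is a description of the letters and names no binding site.

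The 4 Dlgap genes, whose products bind the guanylate kinase domain of Dlg proteins on one side and Shank on the other, differed in their DAPT effects. Dlgap2 (chr8:14095776-14853426) had 15.4, 14.3 and 14.3 CPM in DAPT + sErbB4 libraries, against 10.9, 9.70 and 12.4 CPM in sErbB4 libraries. In DAPT libraries it had 12.8, 13.6 and 13.8 CPM, against 9.04, 9.44 and 10.6 CPM in vehicle libraries. The 6 libraries with DAPT were all above the 6 without it, the nearest being DAPT replicate 1 and sErbB4 replicate 3. Dlgap2 rose by a log2 fold change of 0.42 (SE 0.08, adjusted p = 0.00380) with sErbB4 present and 0.47 (SE 0.09, adjusted p = 0.00249) without it. Dlgap3 had an average DAPT effect of 0.29 (SE 0.04, adjusted p = 0.000311) and Dlgap1 of 0.14 (SE 0.03, adjusted p = 0.00444), both under the fold limit. Dlgap4 had -0.04 (SE 0.02, adjusted p = 0.266), with means of 50.8 ± 1.02 CPM in DAPT + sErbB4 libraries and 51.3 ± 0.734 CPM in sErbB4 libraries, and 49.2 ± 0.258 CPM in DAPT libraries and 51.2 ± 0.779 CPM in vehicle libraries. When libraries were scaled to the pan-neuronal sum, Dlgap2 stayed positive at 0.24 (adjusted p = 0.00304). Dlgap3 was then at 0.08 (adjusted p = 0.0872), Dlgap1 at -0.06 (adjusted p = 0.224) and Dlgap4 at -0.24 (adjusted p = 4.72e-05).

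Shank proteins are the master scaffolds that join the receptor layer to Homer and actin. Under TMM, Shank1 and Shank2 were higher with DAPT while Shank3 did not pass the test. Shank1 (chr7:44308916-44360094) had 71.2, 66.7 and 65.0 CPM in DAPT + sErbB4 libraries, against 61.8, 50.8 and 56.4 CPM in sErbB4 libraries. It had 64.1, 68.3 and 65.0 CPM in DAPT libraries, against 48.3, 49.0 and 55.2 CPM in vehicle libraries. Libraries with and without DAPT did not overlap, although sErbB4 replicate 1, at 61.8 CPM, came close to the lowest DAPT library. Shank1 was called in DAPT against vehicle (0.37, SE 0.07, adjusted p = 0.00356) and was 0.26 (SE 0.07, adjusted p = 0.0204) with sErbB4 present. Shank2 averaged 21.6 ± 0.346 CPM with DAPT + sErbB4 and 18.1 ± 0.820 CPM with sErbB4, and 20.9 ± 0.950 CPM with DAPT and 16.7 ± 0.577 CPM with vehicle, an average DAPT effect of 0.28 (SE 0.03, adjusted p = 5.25e-05) and a fold of 1.22. Shank3 (chr15:89493013-89560261) averaged 49.5 ± 1.22 CPM with DAPT + sErbB4 and 50.9 ± 0.897 CPM with sErbB4, and 49.9 ± 3.16 CPM with DAPT and 50.9 ± 2.46 CPM with vehicle, a difference of -0.03 (SE 0.04, adjusted p = 0.506). When libraries were scaled to the pan-neuronal sum, Shank1 was at 0.11 (adjusted p = 0.0974) and Shank2 at 0.08 (adjusted p = 0.149). Shank3 was then lower, at -0.24 (adjusted p = 9.93e-05).

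No Homer gene was called in either DAPT comparison, and the 3 family members did not move together. Homer1, which links Shank to metabotropic glutamate receptors and whose short activity-induced form is not separated here, had 30.3, 30.2 and 33.5 CPM in DAPT + sErbB4 libraries, against 26.3, 26.4 and 29.7 CPM in sErbB4 libraries. In DAPT libraries it had 29.0, 26.6 and 29.4 CPM, against 25.8, 23.4 and 26.5 CPM in vehicle libraries. Within each pair all libraries with DAPT were above all without it, narrowly, but over all 12 they overlapped. Its average DAPT effect was 0.18 (SE 0.05, adjusted p = 0.0113), and it was -0.03 when libraries were scaled to the pan-neuronal sum. Homer2 was at 0.00 (SE 0.04, adjusted p = 0.993). Homer3 fell by 0.16 on the log2 scale (SE 0.04, adjusted p = 0.0109), with every library with DAPT below every library without it, by a narrow margin. Of the exonic bases of Homer3, 25.4% are shared with Ddx49 on the opposite strand, and strand use in the counting is not given in the sources used here, so its value is uncertain.

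The calcium and cAMP signalling genes held several of the clearest changes. Camk2a encodes the alpha subunit of the kinase that phosphorylates AMPA receptors during long-term potentiation. It had 244, 225 and 235 CPM in DAPT + sErbB4 libraries, against 186, 184 and 197 CPM in sErbB4 libraries. It had 216, 219.7 and 204 CPM in DAPT libraries, against 158, 170.4 and 169 CPM in vehicle libraries. No library without DAPT reached the lowest library with it. The log2 fold change was 0.31 (SE 0.05, adjusted p = 0.000495, a fold of 1.24) with sErbB4 present and 0.36 (SE 0.05, adjusted p = 0.000195, called) without it, and the average DAPT effect of 0.34 (SE 0.03, adjusted p = 1.02e-05) was called. Camk2b, the beta subunit that also binds actin, had a smaller average DAPT effect of 0.13 (SE 0.03, adjusted p = 0.00279). When libraries were scaled to the pan-neuronal sum, Camk2b was at -0.07 (adjusted p = 0.0318) and Camk2a at 0.13 (adjusted p = 0.00249).

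Nrgn (chr9:37544493-37552745) encodes neurogranin, which binds calmodulin when calcium is low. It had 347, 305 and 316 CPM in DAPT + sErbB4 libraries, against 253, 256 and 273 CPM in sErbB4 libraries. Its levels were 283, 293 and 289 CPM in DAPT libraries, against 223, 229.7 and 236 CPM in vehicle libraries. The 6 libraries with DAPT were all above the 6 without it. The log2 fold changes were 0.31 (SE 0.05, adjusted p = 0.000814) and 0.33 (SE 0.05, adjusted p = 0.000551), and the fold of 1.26 in DAPT against vehicle was just past the limit. That call ended without vehicle replicate 1 (log2 fold change 0.31) or without DAPT replicate 2 (0.32).

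Adcy8 (chr15:64699035-64922296), a calcium-stimulated adenylyl cyclase, had the largest average DAPT effect of the 37 genes. It had 12.0, 11.0 and 11.9 CPM in DAPT + sErbB4 libraries, against 7.85, 7.98 and 7.04 CPM in sErbB4 libraries. In DAPT libraries it had 11.4, 11.3 and 10.8 CPM, against 8.89, 8.76 and 7.14 CPM in vehicle libraries. The lowest library with DAPT stood at 10.8 CPM and the highest without it at 8.89 CPM. Adcy8 rose by a log2 fold change of 0.60 (SE 0.08, adjusted p = 0.000260, a fold of 1.52) with sErbB4 present and 0.44 (SE 0.08, adjusted p = 0.00271, a fold of 1.35) without it. Akap5, an anchor for protein kinase A and calcineurin and the gene of lowest count among the 37, had an average DAPT effect of 0.07 (SE 0.10, adjusted p = 0.644), a difference not detectable at this depth and spread.

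**Figure D3:**
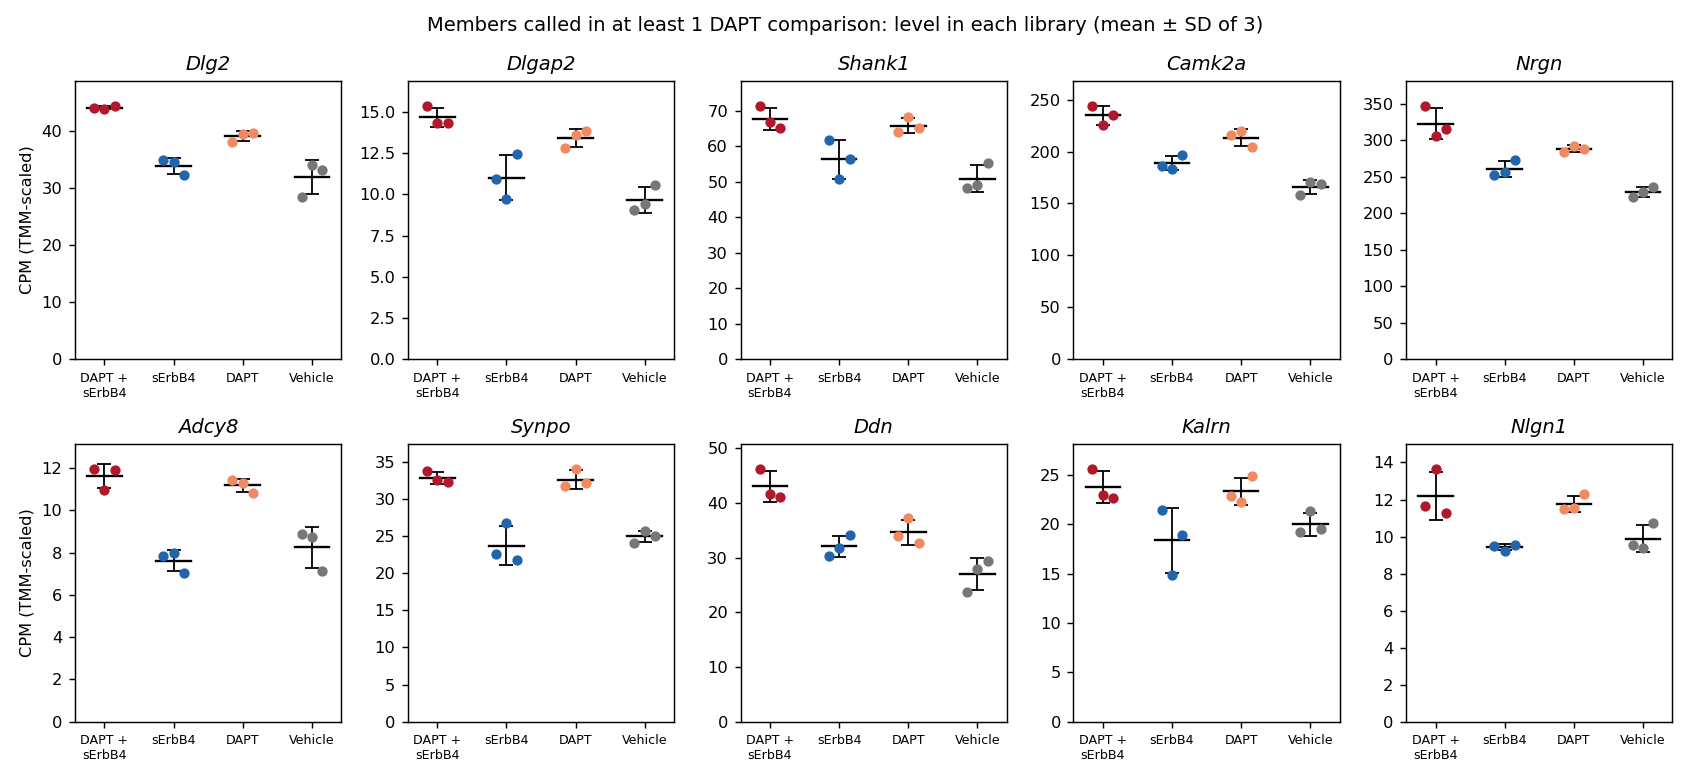
Level in CPM (vertical axes, from 0) of the 10 genes called in at least 1 DAPT comparison, in each library of the 4 groups, with the mean as a line and the SD of 3 libraries as a bar. In 9 of the 10 panels all points with DAPT lie above all points without it; in Ddn the lowest DAPT library, at 32.7 CPM, lies below the highest sErbB4 library, at 34.1 CPM.

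Spine actin and spine apparatus genes moved in both directions. Synpo encodes synaptopodin, the protein needed for the spine apparatus, a stack of smooth endoplasmic reticulum in mature spines. It had 33.7, 32.5 and 32.3 CPM in DAPT + sErbB4 libraries, against 22.5, 26.7 and 21.8 CPM in sErbB4 libraries. Its levels were 31.7, 34.0 and 32.1 CPM in DAPT libraries, against 24.1, 25.7 and 25.03 CPM in vehicle libraries. Libraries with DAPT sat in a narrow band above all libraries without it. Synpo rose by a log2 fold change of 0.47 (SE 0.07, adjusted p = 0.000373) with sErbB4 present and 0.39 (SE 0.07, adjusted p = 0.00152) without it.

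Ddn (chr15:98803782-98807925) encodes dendrin, whose mRNA is carried into dendrites. It had 46.2, 41.7 and 41.1 CPM in DAPT + sErbB4 libraries, against 30.4, 31.8 and 34.1 CPM in sErbB4 libraries. In DAPT libraries it had 34.0, 37.1 and 32.7 CPM, against 23.8, 27.9 and 29.4 CPM in vehicle libraries. Each pair stood apart, but DAPT libraries overlapped with sErbB4 libraries. Ddn rose by 0.42 (SE 0.08, adjusted p = 0.00241) and 0.36 (SE 0.08, adjusted p = 0.00851) on the log2 scale with and without sErbB4. The call in DAPT against vehicle ended without vehicle replicate 1 (0.27) or without DAPT replicate 2 (0.30).

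Kalrn (chr16:33969073-34573277), a guanine nucleotide exchange factor for Rac that enlarges spines, had 25.6, 23.0 and 22.7 CPM in DAPT + sErbB4 libraries, against 21.4, 14.9 and 18.9 CPM in sErbB4 libraries. It had 22.9, 22.3 and 24.9 CPM in DAPT libraries, against 19.2, 21.4 and 19.6 CPM in vehicle libraries. All libraries with DAPT were above all without it, and sErbB4 replicate 2 was the lowest of the 12. Its log2 fold change of 0.37 (SE 0.11, adjusted p = 0.0257) with sErbB4 present was called, but without sErbB4 replicate 2 it was 0.23 (adjusted p = 0.0585), and it also missed the threshold without DAPT + sErbB4 replicate 1 (adjusted p = 0.0943), 2 (adjusted p = 0.0522) or 3 (adjusted p = 0.0511). Without sErbB4, Kalrn had 0.23 (SE 0.11, adjusted p = 0.166).

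The 4 remaining spine genes changed by less than the fold limit. Baiap2, which bends membrane and recruits actin regulators, had an average DAPT effect of 0.16 (SE 0.03, adjusted p = 0.00362), Sipa1l1, a Rap regulator, of 0.12 (SE 0.03, adjusted p = 0.0100), and Ppp1r9a, the actin-binding protein neurabin, of 0.16 (SE 0.05, adjusted p = 0.0354). Ppp1r9b encodes spinophilin, the close relative of neurabin that targets protein phosphatase 1 to spines, and it went the other way. It averaged 150.9 ± 2.95 CPM with DAPT + sErbB4 and 172 ± 2.44 CPM with sErbB4, and 150.9 ± 3.55 CPM with DAPT and 165 ± 3.47 CPM with vehicle. Every library with DAPT was below every library without it, and Ppp1r9b fell by 0.16 on the log2 scale (SE 0.02, adjusted p = 0.000261).

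Of the 5 genes grouped here under Ras and Arf signalling scaffolds, 1 was called in the average DAPT effect, where 5.54% of all genes were called higher and 7.7% lower. The group name is a broad label for Lrrc7, Begain, Cnksr2, Iqsec1 and Iqsec2. The call was for Lrrc7 and is not read as a trait of Ras or Arf signalling. Lrrc7, which encodes densin and binds the kinase of Camk2a, was called higher in the average DAPT effect (0.44, SE 0.12, adjusted p = 0.0120) and in neither comparison alone. It ranged over 8.11 to 8.70 CPM with DAPT + sErbB4 and 4.53 to 7.97 CPM with sErbB4, and over 7.24 to 8.00 CPM with DAPT and 4.97 to 6.78 CPM with vehicle, so that the wide spread of the sErbB4 libraries overlapped with DAPT. Begain had an average DAPT effect of 0.22 (SE 0.07, adjusted p = 0.0198), Cnksr2 of 0.20 (SE 0.08, adjusted p = 0.0917) and Iqsec2 of 0.09 (SE 0.04, adjusted p = 0.0920). Iqsec1, an exchange factor for Arf6 that acts in AMPA receptor removal, had 37.8, 38.7 and 36.7 CPM in DAPT + sErbB4 libraries, against 36.7, 36.8 and 37.3 CPM in sErbB4 libraries. In DAPT libraries it had 41.2, 42.5 and 38.3 CPM, against 39.8, 38.8 and 38.6 CPM in vehicle libraries. These ranges overlapped, and the average DAPT effect was 0.04 (SE 0.03, adjusted p = 0.294), or -0.16 when scaled to the pan-neuronal sum.

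Among the synaptic adhesion genes, Nlgn1 was called. Neuroligins bind presynaptic neurexins, with Nlgn1 at excitatory and Nlgn2 at inhibitory synapses. Nlgn1 (chr3:25421808-26332866) had 11.7, 13.6 and 11.3 CPM in DAPT + sErbB4 libraries, against 9.50, 9.22 and 9.53 CPM in sErbB4 libraries. It had 11.5, 11.5 and 12.3 CPM in DAPT libraries, against 9.55, 9.38 and 10.7 CPM in vehicle libraries. Libraries with DAPT were all above those without it, and vehicle replicate 3 came nearest. The log2 fold change was 0.37 (SE 0.08, adjusted p = 0.00404, called) with sErbB4 present and 0.25 (SE 0.08, adjusted p = 0.0363) without it, and the call ended without DAPT + sErbB4 replicate 2 (0.28) and by limma (0.29). Nlgn2 had an average DAPT effect of 0.16 (SE 0.04, adjusted p = 0.00828) and Lrrtm1, a further neurexin ligand, of 0.19 (SE 0.05, adjusted p = 0.0191), while Lrrtm2 (0.16, SE 0.06, adjusted p = 0.0618) and Nlgn3 (-0.05, SE 0.06, adjusted p = 0.565) did not pass the test. For Nlgn3, 41.2% of the exonic bases are shared with other annotated transcripts, so its counts are uncertain.

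Gphn (chr12:78217325-78684772) encodes gephyrin, the scaffold of inhibitory synapses. It had 33.7, 35.1 and 34.7 CPM in DAPT + sErbB4 libraries, against 32.7, 32.1 and 33.2 CPM in sErbB4 libraries. It had 34.6, 33.4 and 33.7 CPM in DAPT libraries, against 32.1, 29.6 and 29.5 CPM in vehicle libraries. The libraries with DAPT lay just above those without it. Gphn had a log2 fold change of 0.08 (SE 0.04, adjusted p = 0.168) with sErbB4 present and 0.15 (SE 0.04, adjusted p = 0.0146) without it, and the average DAPT effect turned to -0.09 when scaled to the pan-neuronal sum.

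Paralogues within a family differed in how far they moved, which can be read from the ratio of their counts in a library. Such a ratio does not depend on how libraries are scaled, although its absolute value depends on transcript length. In each of 25 pairs the gene that rose more with DAPT was put on top, so the direction is set by this choice and only the separation of the libraries is described. The ratio stood apart between the 6 libraries with DAPT and the 6 without it in 8 of 25 pairs, several of which share a gene. No share over other gene pairs was computed. A ratio can stand apart when only 1 of its genes moves, and 20.4% of all single genes tested stood apart in either direction. The count is therefore not read as a trait of paralogues. These pairs were Dlg2/Dlg3, Dlg4/Dlg3, Dlgap2/Dlgap4, Shank1/Shank3, Shank2/Shank3, Camk2a/Camk2b, Ppp1r9a/Ppp1r9b and Nlgn1/Nlgn3. The Dlgap2/Dlgap4 ratio moved most, with 0.258 to 0.298 in libraries with DAPT and 0.180 to 0.245 in those without it. Shank1/Shank3 was 1.28 to 1.42 with DAPT and 0.946 to 1.20 without it, and Camk2a/Camk2b was 1.14 to 1.23 with DAPT and 0.997 to 1.06 without it. Shank1 and Shank2 kept a ratio of 2.99 to 3.29 with DAPT and 2.85 to 3.25 without it, which overlapped.

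**Figure D4:**
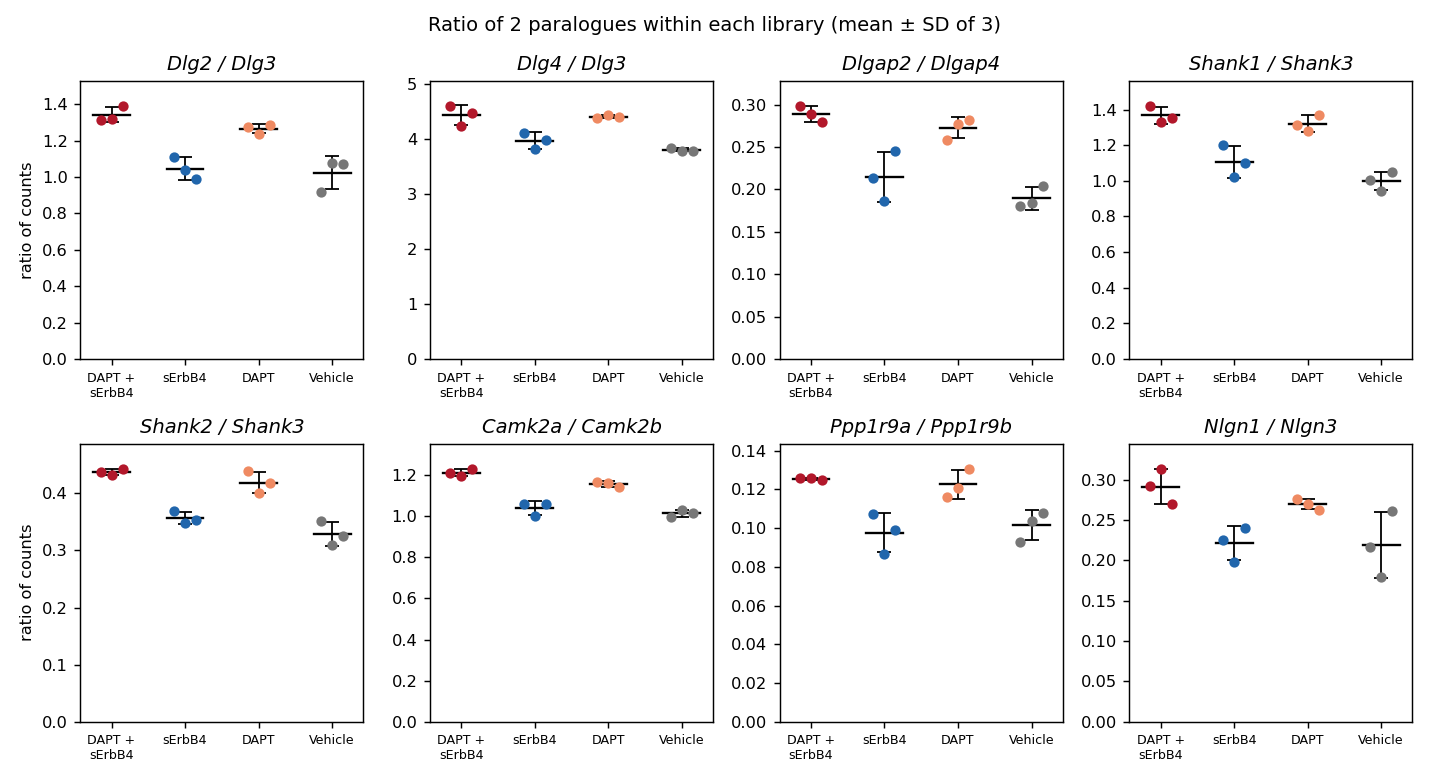
Ratio of the counts of 2 paralogues in each library (vertical axes, from 0) for the 8 pairs whose libraries with and without DAPT do not overlap, with the mean as a line and the SD of 3 libraries as a bar. In Dlg2/Dlg3 the lowest ratio with DAPT is 1.24 and the highest without it is 1.11, and in Camk2a/Camk2b these are 1.14 and 1.06.

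No member passed the threshold with sErbB4, either alone or with DAPT present. In sErbB4 against vehicle 0 of 37 were called by edgeR, by DESeq2 or by limma, beside 0.0319% of all genes by edgeR, and 8 members had an unadjusted p under 0.05 (7.56% of all genes). These 8 (Dlg4, Dlgap3, Camk2a, Camk2b, Nrgn, Ddn, Sipa1l1 and Gphn) had positive log2 fold changes of 0.10 to 0.25, and the lowest adjusted p was 0.387, for Camk2a. Over the 37 genes the median was 0.09, with 27 positive, and that of all genes 0.00. With DAPT present, in DAPT + sErbB4 against DAPT, 0 of 37 were called by the same 3 tools, beside 0% of all genes by edgeR. There 9 members had an unadjusted p under 0.05 (9.21% of all genes), 8 of them positive, and Ddn had the largest log2 fold change (0.31, SE 0.08, adjusted p = 0.330). The median of the 37 was 0.05, with 32 positive, and that of all genes 0.00. The pan-neuronal markers summed to 1438 to 1527 CPM with sErbB4 and 1312 to 1407 CPM with vehicle, and to 1683 to 1769 CPM with DAPT + sErbB4 and 1541 to 1619 CPM with DAPT. Scaled to this sum, the medians of the 37 were -0.04 and -0.08 while those of all genes were -0.132 and -0.125.

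The interaction, which asks whether the DAPT effect differed with and without sErbB4, was called in 0 of 37 genes by edgeR, DESeq2 or limma, beside 0.00639% of all genes by edgeR, and 0 members had an unadjusted p under 0.05 (3.61% of all genes). The interaction estimates ran from -0.15 to 0.17 on the log2 scale, with Akap5 at the lower end and Adcy8 at the upper (0.17, SE 0.12).

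In sErbB4 against DAPT, which differ in both agents, 4 of 37 members were called lower and 0 higher, beside 4.05% and 6.04% of all genes. They were Adcy8 (-0.55, SE 0.08, adjusted p = 0.000592), Synpo (-0.46, SE 0.07, adjusted p = 0.000513), Kalrn (-0.35, SE 0.11, adjusted p = 0.0381) and Nlgn1 (-0.32, SE 0.08, adjusted p = 0.0107). The median of the 37 was -0.08 and that of all genes 0.00, and scaled to the pan-neuronal sum the median of the 37 was -0.01, with 17 positive and 2 called lower (Adcy8 and Synpo). The call of Kalrn ended in 11 of 23 alternatives, among them leaving out sErbB4 replicate 2 (-0.21, adjusted p = 0.0916) or DAPT replicate 3 (-0.31, adjusted p = 0.132), and that of Nlgn1 ended by limma (-0.25), and without sErbB4 replicate 2 (-0.31) or DAPT replicate 3 (-0.30).

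A further 61 postsynaptic genes on lists of scaffolds, spine actin regulators, adhesion proteins, calcium enzymes and inhibitory synapse proteins held calls in both directions. In DAPT + sErbB4 against sErbB4, 6 of 61 were called higher and 2 lower (4.55% and 7.15% of all genes), with a median of 0.10 against 0.01 over all genes. In DAPT against vehicle 9 were called higher and 2 lower (4.66% and 6.92% of all genes), with a median of 0.12 against 0.01. In the average DAPT effect 8 were called higher and 2 lower (5.54% and 7.7% of all genes), with a median of 0.12 against 0.01. The 10 pan-neuronal markers had a higher median in this effect, 0.25, and values of the 61 genes scaled to the pan-neuronal sum are not given. Lrfn5, an adhesion protein of excitatory synapses, had 0.53 (SE 0.04, adjusted p = 2.03e-06), Il1rapl1, a further adhesion protein, 0.49 (SE 0.17, adjusted p = 0.0371), Lin7b, a PDZ scaffold, 0.43 (SE 0.07, adjusted p = 0.000758), and Slitrk3, an inhibitory synapse adhesion protein, 0.42 (SE 0.03, adjusted p = 1.58e-06). Arc, the activity-induced regulator of AMPA receptor removal, had 0.38 (SE 0.08, adjusted p = 0.00247), and Camk4, a calcium-activated kinase, had 0.36 (SE 0.05, adjusted p = 0.000227). Adgrb2 (-0.36, SE 0.03, adjusted p = 7.70e-06) and Lrrc4b (-0.35, SE 0.05, adjusted p = 0.000234), both adhesion proteins, were called lower. In the average DAPT effect edgeR called 0 of the 12 spine actin regulators outside the 37, such as Dbn1 and Cttn, with 7 at an unadjusted p under 0.05, where 45.4% of all genes did.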

How the data were processed

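Poly(A) RNA of 12 cultures, 3 platings a treatment, was sequenced as 75-base read pairs. Per the submitters' processing notes and the study's methods, Trimmomatic was used for trimming, HISAT2 for alignment (build mm10), StringTie for transcript quantification and IsoformSwitchAnalyzeR for gene counts. Tool versions are not given in the sources used here, nor is strand use. The authors deposited gene-level estimated counts, which need not be whole and were rounded here before any test. Loci without a gene name held 43.4 to 51.9% of the counts and took no part in library sizes or tests.

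Samples were grouped by the treatment in their labels. Genes were filtered with filterByExpr (minimum count of 10), scaled by TMM and fitted in 1 model of 4 group means (8 residual degrees of freedom) with edgeR 4.0.16 in R 4.3.3, using the quasi-likelihood F test and Benjamini-Hochberg adjustment over 15656 genes. The SE of a log2 fold change was its size divided by the square root of F. The script was tested on simulated data. DESeq2 1.42.0, limma 3.58.1 on log2(CPM + 2) with cyclic loess, other scalings and filters, a replicate block and leaving out each library were alternatives.

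The members and gene lists were chosen with earlier results of these data known. All members are named; values in every library were given for members called in a DAPT or sErbB4 comparison and, in a role group without one, for the member of highest mean CPM. Of the other postsynaptic lists, at most 4 called genes a list were named by size, and 1 result is not reported here. Gene positions are those of GRCm38.p6.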

Additional observations from a re-analysis of the deposited data

How the results depend on the processing

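The direction of the members with DAPT changed when libraries were scaled to the summed pan-neuronal markers. Under that scaling 3 members were called in DAPT + sErbB4 against sErbB4 (1 higher, 2 lower), 2 in DAPT against vehicle, 2 in the average DAPT effect (all lower) and 2 in sErbB4 against DAPT, and the average DAPT effect changed sign in 17 of 37 members, among them Homer1 (-0.026), Iqsec1 (-0.163) and Gphn (-0.0885). This follows from the construction, since the marker sum was itself higher with DAPT, and it moved the median of all genes by a similar amount. All genes called under it were 3541, 3604 and 3766 in the DAPT comparisons named first, against 1832, 1813 and 2072. With no fold limit, 15, 18, 26 and 11 members were called in DAPT + sErbB4 against sErbB4, DAPT against vehicle, the average DAPT effect and sErbB4 against DAPT. Fitted on only the libraries compared, sErbB4 against DAPT had 2. Leaving out the pair of libraries that stood apart, chosen after seeing the data, gave 11 in DAPT against vehicle. Leaving out each library in turn gave 6 to 10 members in DAPT + sErbB4 against sErbB4, 5 to 10 in DAPT against vehicle, 6 to 10 in the average effect, 2 to 5 in sErbB4 against DAPT (2 without sErbB4 replicate 2 or without DAPT replicate 3), and 0 in the other comparisons. Of all genes, limma called 1370 in the average effect, where edgeR called 2072. In sErbB4 against vehicle 5 genes were called, against 18 by DESeq2, 0 with only the libraries compared and 2 with the replicate block. In DAPT + sErbB4 against DAPT 0 were called, against 8 by DESeq2, 1 by limma, 2 with only the libraries compared and 2 under the pan-neuronal scaling, and in the interaction 1, against 4 by DESeq2.

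The labels share replicate numbers but do not say that a number marks a shared plating. Over 18 pairs of same-numbered libraries the correlation of deviations from group means ran from -0.669 to 0.599 (median 0.0338, 8 over 0.1), and 5 of 12 libraries correlated best with their own number. With the replicate block the member counts stayed at 7, 7, 7 and 4 in the DAPT comparisons and sErbB4 against DAPT and at 0 in the others, and all genes called were 1778 in DAPT + sErbB4 against sErbB4, 1750 in DAPT against vehicle and 2020 in the average effect.

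With 3 libraries a group, changes near the fold limit moved across it with a single library, and values of low genes such as Akap5 and Lrrc7 were the least certain.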
